A study of Mus musculus with 6 samples.

Results

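The comparison described here set fibroblastic reticular cells (FRCs) of a mouse cell line kept in medium conditioned by either of 2 tumour lines against the same cells in control medium. The tumour side pooled all 4 libraries of the 67NR and 4T1 media, 2 for each, and the control side was the 2 libraries of medium conditioned by the FRC line itself, so all 6 libraries of the series entered. FRCs are stroma of the lymph node, where they lay down and wrap the fibres of the conduit network. The 67NR and 4T1 lines derive from the same mouse mammary tumour. Only the latter is known to metastasise. All cells, controls included, were treated for 96 h, and the medium was renewed every 48 h. Every medium had been conditioned for 24 h in plain RPMI and then supplemented with 2% serum and antibiotics. The labels give no genotype, transgene or age, and the FRCs are a single line. A gene belonged to the common response when 3 conditions held. Its pooled change had to pass edgeR's quasi-likelihood test at an adjusted p under 0.05. All 4 tumour-medium libraries had to lie on the same side of both control libraries. The log2 fold changes of the 2 media had to share their sign and lie no more than 0.5 apart. Of 15055 genes tested, 1151 met the rule as higher and 1228 as lower.

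Conditioned medium carries what cells secrete (cytokines, growth factors, proteases and metabolites) and lacks what they have used up, so cells kept in it receive a mixture of signals. Fibroblasts read such mixtures through growth factor receptors that switch on immediate early transcription factors, through interferon and other cytokine receptors, and through pathways that control entry into the cell cycle. Cell cycle genes come in waves. Genes for DNA replication are switched on by E2F factors before S phase, and genes for the mitotic spindle are switched on later through a promoter element called the cell cycle homology region. A response held in common by the 2 media is, for these 6 libraries, one seen to a similar size with the medium of either tumour line.

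Total counts per library were between 13.6 and 21.8 M (1e6 counts), which made each count worth 0.0463 to 0.0743 CPM (counts per 1e6). Levels below are CPM scaled with TMM factors (trimmed mean of M-values) and are not corrected for gene length. The labels do not say that the libraries of a medium came from separate cultures, so p-values measure the spread between these libraries, which may be technical. Fewer cells with a transcript and less of it per cell cannot be told apart in bulk RNA. The summed level of 12 fibroblast markers was 38970 to 39430 CPM in control medium, 41780 and 42130 in 67NR medium and 28800 and 31770 in 4T1 medium. Nearly all of that sum was Col1a1, Fn1, Col3a1 and Vim, and Thy1 was at 0 in all 6 libraries. Of 11 tested fibroblast markers 4 rose and 5 fell in the pooled comparison. Markers of the tumour lines and other epithelia summed to 2.18 to 6.76 CPM in tumour media and 8.32 to 9.55 CPM in control medium, with Epcam, Cldn3, Cldn4 and Esrp1 at 0 throughout. Macrophage markers summed to 12.7 to 19.3 CPM against 8.67 to 9.59 CPM, with Adgre1, Fcgr1, Tyrobp, Mrc1, C1qa and C1qb at 0. With 4T1 medium Cd14 was at 12.7 and 13.9 CPM, against 1.61 and 1.11 in control medium, while Lyz2 was lower (1.89 and 2.18 against 4.62 and 5.87). With 67NR medium Lyz2 was higher, at 9.13 and 8.86 CPM, and Cd14 was at 0.834 and 1.12 CPM. Endothelial markers summed to 23.8 to 35.9 CPM against 14.1 to 16.1 CPM, with Erg, Cldn5 and Prox1 at 0. Most of that sum was Emcn, at 20.3 to 34.7 CPM in tumour media against 11.7 and 12.6 CPM in control medium. Tek was lower in tumour media (0.163 to 0.633 against 0.934 and 1.04 CPM), and Kdr was lower with 4T1 medium. Of 4 tested endothelial markers 1 rose and 2 fell in the pooled comparison. Lymphocyte markers summed to 0.925 to 6.08 CPM against 0.727 to 0.743 CPM, with 6 of 10 at 0, among them Cd3e. Nearly all of that sum was Lck, at 0.675 and 0.743 CPM in control medium, 1.39 and 0.779 in 67NR medium and 5.88 and 4.9 in 4T1 medium. Pericyte and muscle markers summed to 10.4 to 15.7 CPM against 18.6 to 19.9 CPM, and adipocyte markers to 20 to 32.4 CPM against 25.3 to 27.1 CPM. The part of these markers in the results was not tested.

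In the pooled comparison 2245 genes were higher (14.9% of those tested) and 2424 were lower (16.1%) in tumour media. Before any test, all 4 tumour-medium libraries lay above both control libraries for 2479 genes (16.5%) and below both for 2422 (16.1%). Both the test and the separation held for 1649 higher and 1733 lower genes. Of these, 498 and 505 changed in the same direction in both media but by amounts more than 0.5 apart on the log2 scale. The common response was what remained, 7.65% of genes tested as higher and 8.16% as lower. Of its 2379 genes, 1108 were also called in each medium alone, and for 1703 the 95% interval of the difference between media lay within the bound of 0.5. For 777 of them the media nevertheless differed at an adjusted p under 0.05, by less than that bound. Counts given below for gene lists are to be read against the shares of all tested genes in this paragraph.

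Most common changes were small. The median pooled log2 fold change was 0.35 among the higher genes and -0.33 among the lower ones, while the median over all genes tested was -0.00077. A pooled change under 0.5 on the log2 scale applied to 71.3% of the higher and 78.4% of the lower genes. At least a 2-fold change in each medium was reached by 74 higher genes (0.492% of genes tested) and 43 lower genes (0.286%). Near the bound on size, Zfp467 was just inside (log2 changes of 0.19 with 4T1 and 0.68 with 67NR medium), and Shc2 was just outside (0.62 and 0.12). On the lower side Ddias was just inside (-1.03 and -1.53) and Myo1e just outside (-0.81 and -0.30). The median standard error of a common change was 0.074, and the median half-width of the 95% interval of the difference between media was 0.18.

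The common part stood beside larger differences between the media. Against control, 4T1 medium alone had 2995 higher genes (19.9%) and 2893 lower genes (19.2%), and 67NR medium alone had 1951 (13% of those tested) and 2199 (14.6%). Directly against 67NR medium, 3542 genes were higher in 4T1 medium (23.5%) and 2989 lower (19.9%). Opposite calls in the 2 media were made for 698 genes. Both media share the control libraries, so an error in a control library moves both changes together. Without the first control library the pooled counts were 1101 higher and 1458 lower genes and the common counts 467 and 726. Without the second they were 1221 and 1405, and 536 and 658.

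**Figure D1:**
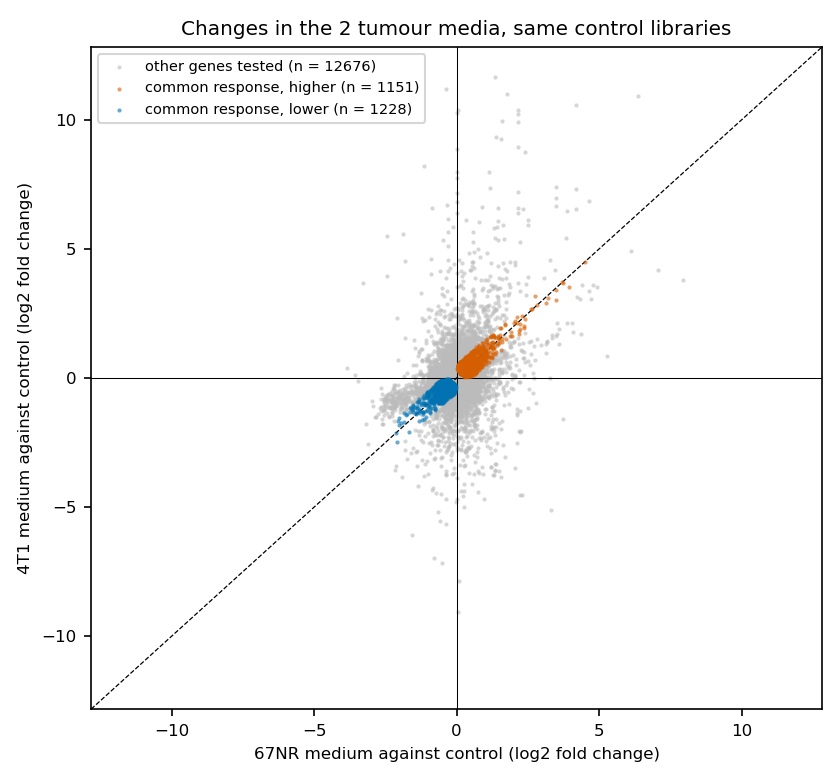
Each point is 1 of 15055 genes tested, with its log2 fold change against control in 67NR medium on the x axis and in 4T1 medium on the y axis. The dashed line marks equal change and coloured points are the 1151 higher and 1228 lower common genes. These lie in a band along the line because the rule sets its width, and both axes share the same 2 control libraries.

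A narrower set was called when the 4 tumour-medium libraries were fitted as 1 group, so that the difference between the media counted as spread. This fit called 29 higher and 23 lower genes, and 2427 genes had an unadjusted p under 0.05, compared with 6233 in the fit with a mean for each medium. All 23 lower and 28 of the 29 higher genes belonged to the common response. The exception was Dcn, which encodes the collagen-binding proteoglycan decorin. It had 48.3 and 48.9 CPM in control medium, 129.8 and 132 in 67NR medium and 195 and 185 in 4T1 medium. Both media raised Dcn, and the 4T1 libraries stood above the 67NR libraries (log2 changes of 1.97 and 1.43, a difference of 0.54). These 52 genes are referred to below as the tightest set, and no other gene named below was called in that fit. Genes of this set that the naming rule does not give were chosen after their values were seen.

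**Figure D2:**
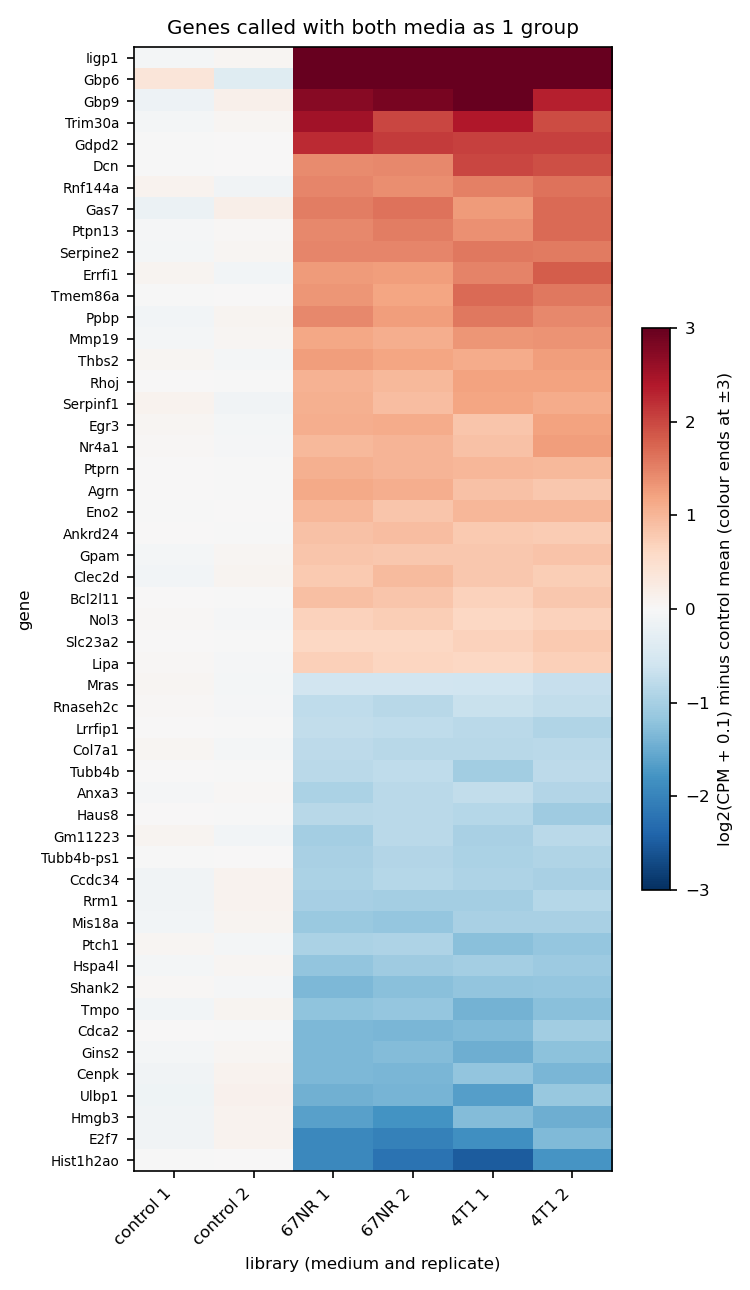
Rows are the 52 genes called when both tumour media formed 1 group and columns are the 6 libraries. Colour is log2(CPM + 0.1) minus the mean of the 2 control libraries, red for higher and blue for lower, with the colour scale ending at 3 in either direction. In each row the 4 tumour-medium libraries have the same direction of change.

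Sequences upstream of 5 genes are shown because they include interferon-inducible and cell cycle genes, whose promoters have well-known elements. Each is the 250 bases before the RefSeq start site on GRCm38.p6, read 5′ to 3′ on the strand of the gene, with letter matches on either strand in capitals. Gbp2 (chr3:142620413-142620662, plus strand) and Socs1 (chr16:10785537-10785786, minus strand) carry GAAA, any 2 bases and GAAA again, the core of an interferon-stimulated response element. E2f7 (chr10:110745189-110745438, plus strand) and Rrm1 (chr7:102441445-102441694, plus strand) carry the letters TTCCCGC of an E2F site. Cdc20 (chr4:118437344-118437593, minus strand), a mitotic gene outside the common response, carries the letters TTTGAA of a cell cycle homology region.
Gbp2: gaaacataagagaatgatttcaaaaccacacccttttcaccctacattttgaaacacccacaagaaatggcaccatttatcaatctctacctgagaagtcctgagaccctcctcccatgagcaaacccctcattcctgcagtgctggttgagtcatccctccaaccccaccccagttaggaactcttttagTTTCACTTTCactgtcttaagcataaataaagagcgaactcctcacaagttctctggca
Socs1: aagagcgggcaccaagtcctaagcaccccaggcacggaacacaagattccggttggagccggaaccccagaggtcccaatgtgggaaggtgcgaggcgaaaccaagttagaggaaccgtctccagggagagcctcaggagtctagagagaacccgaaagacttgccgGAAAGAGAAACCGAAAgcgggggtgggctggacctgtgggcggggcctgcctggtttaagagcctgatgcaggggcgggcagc
E2f7: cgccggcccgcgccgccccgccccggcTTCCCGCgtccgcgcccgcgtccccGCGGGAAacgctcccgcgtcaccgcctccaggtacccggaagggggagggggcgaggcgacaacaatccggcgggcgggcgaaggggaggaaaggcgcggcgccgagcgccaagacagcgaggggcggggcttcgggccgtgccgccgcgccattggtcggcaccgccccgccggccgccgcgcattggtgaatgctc
Rrm1: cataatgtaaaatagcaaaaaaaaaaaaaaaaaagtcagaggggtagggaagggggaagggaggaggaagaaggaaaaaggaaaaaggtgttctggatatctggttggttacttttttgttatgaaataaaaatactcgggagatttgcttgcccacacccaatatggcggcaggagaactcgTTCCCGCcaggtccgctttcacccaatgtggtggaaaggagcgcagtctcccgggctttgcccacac
Cdc20: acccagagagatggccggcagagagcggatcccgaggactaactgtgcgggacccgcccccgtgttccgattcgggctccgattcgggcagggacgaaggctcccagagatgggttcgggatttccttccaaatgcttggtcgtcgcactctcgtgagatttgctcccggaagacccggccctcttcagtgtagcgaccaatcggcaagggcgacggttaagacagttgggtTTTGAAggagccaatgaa
Socs1 and E2f7 each have 2 matches, which overlap in Socs1, and the others have 1. The share of 300-base RefSeq promoters with each string was counted over 9983 of the 15055 tested genes that have one, with 12764 windows. The interferon element was in 3.03% of these windows, in 20% of 60 windows of the higher common genes with at least a 2-fold change in each medium, and in 55.2% of 29 windows of the interferon list. TTCCCGC was in 8.19% of windows of tested genes, in 25% of 24 windows of the lower common genes with at least a 2-fold change, in 37.1% of 35 windows of the DNA replication list and in none of the 29 windows of the mitosis list. TTTGAA was in 12.4%, 12.5%, 11.4% and 79.3% of the same windows. These 3 strings can share letters where they adjoin, and a match describes letters and not a bound site.

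Most tested genes of DNA replication fell in both media. Of 34 tested genes of DNA replication and S phase, 32 fell in the pooled comparison (16.1% of all tested genes did), and 11 belonged to the common response (8.16% of all tested). The list median was -0.69 with 4T1 and -1.29 with 67NR medium, so many of its genes fell further with 67NR medium and lay outside the bound. The 11 common genes were Mcm4 and Mcm6 of the replicative helicase, its partners Gins2 and Cdc45, the clamp loader subunits Rfc3 and Rfc4, the polymerase subunit Pola1, the Okazaki fragment enzymes Fen1 and Lig1, the ribonucleotide reductase subunit Rrm1, and E2f1. The call of Fen1 was lost when any 1 of the 6 libraries was left out (edgeR adjusted p from 0.0530 to 0.251), and that of E2f1 without the second control library (0.110). Gins2, a subunit of the GINS complex that completes the helicase, had 19.1 and 20.7 CPM in control medium, 7.78 and 7.93 in 67NR medium and 7.1 and 8.44 in 4T1 medium. The 4 tumour-medium values lay close together and below both controls. For Gins2 the log2 change was -1.34 ± 0.10 (SE) pooled, -1.34 with 4T1 and -1.33 with 67NR medium (edgeR adjusted p = 6.17e-07). Rrm1, the large subunit of the enzyme that makes deoxynucleotides, had 209 and 240.0 CPM in control medium, 112 and 111 in 67NR medium and 111 and 123 in 4T1 medium. Its levels were nearly the same in the 2 media. In Rrm1 the media gave log2 changes of -0.93 (4T1) and -1.01 (67NR), pooled -0.97 ± 0.07 (SE) (edgeR adjusted p = 2.24e-07). Both genes were in the tightest set, and the E2F letters upstream of Rrm1 are printed above.

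Dck, Gmnn, Cdc45 and Dscc1 fell in both media with more spread. Dck, the kinase that salvages deoxycytidine, had 19.4 and 20.5 CPM in control medium, 7.78 and 7.93 in 67NR medium and 9.67 and 11.4 in 4T1 medium. Gmnn encodes geminin, which blocks relicensing of origins within a cycle. It had 14 and 15.5 CPM in control medium, 4.22 and 5.16 in 67NR medium and 7.91 and 5.45 in 4T1 medium, with the first 4T1 library highest of the 4. Cdc45 had 15.1 and 14 CPM in control medium, 5.37 and 5.79 in 67NR medium and 6.69 and 8.61 in 4T1 medium, and the 4T1 libraries were above the 67NR libraries. Dscc1, part of the alternative clamp loader for sister chromatid cohesion, had 5.97 and 5.95 CPM in control medium, 2.36 and 1.75 in 67NR medium and 2.03 and 3.1 in 4T1 medium. Dck, Gmnn, Cdc45 and Dscc1 changed by -1.13 ± 0.10, -1.4 ± 0.14, -1.15 ± 0.12 and -1.36 ± 0.19 (pooled log2 change ± SE), with an edgeR adjusted p of at most 0.00016. In each the 4 tumour-medium libraries fell below both controls, and for Dck, Gmnn and Cdc45 both 67NR libraries also lay below both 4T1 libraries.

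E2f7, Cks2 and Ccnd1, which act on the cycle itself, fell as well. E2f7, an atypical E2F that represses E2F targets, had 11 and 12.5 CPM in control medium, 3.01 and 2.77 in 67NR medium and 3.18 and 4.58 in 4T1 medium. The fall was one of the largest of the tightest set. E2f7 had a pooled log2 fold change of -1.79 ± 0.15 (SE), with -1.57 in 4T1 and -2.01 in 67NR medium (edgeR adjusted p = 1.44e-06). Cks2, a small subunit of cyclin-dependent kinases, had 10.7 and 11 CPM in control medium, 3.8 and 5.06 in 67NR medium and 3.72 and 5.07 in 4T1 medium, a pooled log2 change of -1.29 ± 0.15 (SE). Of 16 tested genes of CDK inhibitors, D cyclins and the RB family, 10 fell (16.1% of all tested genes did) and 1 rose. In common 5 fell (8.16% of all tested), namely Ccnd1, Ccnd2, Cdk4, Rb1 and Ccng1. The call of Rb1 was lost without 5 of the 6 libraries in turn (edgeR adjusted p from 0.0515 to 0.333). Cyclin D1 (Ccnd1) couples growth factor signals to the cycle and had 185 and 187 CPM in control medium, 121 and 132 in 67NR medium and 107 and 132 in 4T1 medium. For Ccnd1 the log2 change was -0.60 ± 0.08 (SE) pooled, -0.64 with 4T1 and -0.55 with 67NR medium (edgeR adjusted p = 5.59e-05). Without the first control library 7 of the 16 fell, and without the second 6. Cdkn1a, which encodes the CDK inhibitor p21, had 126 and 138 CPM in control medium, 134 and 133 in 67NR medium and 172 and 162 in 4T1 medium. It passed the pooled test (log2 0.17 ± 0.06, edgeR adjusted p = 0.0416) through 4T1 medium (0.34, against 0.01 with 67NR medium), and its call was lost without any 1 of the control or 67NR libraries, without the filter on low counts and with DESeq2, with adjusted p from 0.0563 to 0.442.

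Of the 23 lower genes of the tightest set, 6 that act on chromatin, the nuclear lamina or the spindle were picked out after their values were seen. Tmpo encodes lamina-associated LAP2, which tethers chromatin to the nuclear lamina. It had 249 and 277 CPM in control medium, 113 and 118 in 67NR medium and 98.5 and 111 in 4T1 medium, with the 4T1 libraries lowest. In Tmpo the media gave log2 changes of -1.33 (4T1) and -1.19 (67NR), pooled -1.26 ± 0.06 (SE) (edgeR adjusted p = 2.17e-08). Hmgb3, a chromatin protein with high mobility group boxes, had 20.5 and 23.6 CPM in control medium, 7.0 and 6.23 in 67NR medium and 8.79 and 7.95 in 4T1 medium. Cdca2, which brings protein phosphatase 1 to mitotic chromatin, had 34.3 and 33.9 CPM in control medium, 13.2 and 13 in 67NR medium and 13.7 and 16.6 in 4T1 medium. Hmgb3 and Cdca2 changed by -1.56 ± 0.10 and -1.27 ± 0.09 (pooled log2 change ± SE), with an edgeR adjusted p of at most 2.14e-07. Cenpk, a kinetochore protein, and Mis18a, needed to load centromeric histone, were at 2.82 to 3.24 CPM and 4.62 to 5.28 CPM in tumour media, against 7.01 and 8.03 CPM and 9.86 and 10.9 CPM in control medium. Their pooled log2 changes were -1.35 ± 0.15 and -1.06 ± 0.12 (SE). Haus8, of the augmin complex that branches spindle microtubules, fell by 0.90 ± 0.10 on the log2 scale. All of these were in the tightest set. Hist1h2ao and Tubb4b were in it too, but near-identical histone copies and a processed copy of Tubb4b in the table make their reads uncertain.

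Genes of the mitotic spindle fell in both media by unequal amounts and were not part of the common response. All 34 tested genes of mitosis and spindle passed the pooled test as lower (16.1% of all tested genes did). All 34 fell in each medium alone, against 19.2% of all tested genes with 4T1 and 14.6% with 67NR medium. All 34 were also lower in 67NR than in 4T1 medium (23.5% of all tested genes were). The list median was -0.87 with 4T1 and -2.25 with 67NR medium. Cdc20, the activator of the anaphase-promoting complex, had 51.4 and 50.6 CPM in control medium, 10.7 and 11.2 in 67NR medium and 29.8 and 30.3 in 4T1 medium. The 67NR libraries were the lowest, and the difference between the media was 1.46 on the log2 scale (95% interval 1.26 to 1.65). Mki67, the proliferation marker Ki-67, had 144 and 153 CPM in control medium, 26 and 32 in 67NR medium and 59.1 and 102 in 4T1 medium, and the 2 4T1 libraries were far apart. Of 18 tested genes of homologous recombination and fork repair, 17 fell (16.1% of all tested genes did). In common 1, Brip1, fell (8.16% of all tested). Brip1 passed the pooled test with the replicate number as a block and under limma-voom, but no gene of the list was common in either fit, 4 were with DESeq2 size factors and 6 without the second 4T1 library. Within the replication list, Mcm5 (-1.0 with 4T1, -2.19 with 67NR) and Rrm2 (-1.36 and -2.44) differed between the media as the mitotic genes did. With each library left out in turn, 34 mitosis genes, 30 to 32 replication genes and 15 to 17 recombination genes fell.

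**Figure D3:**
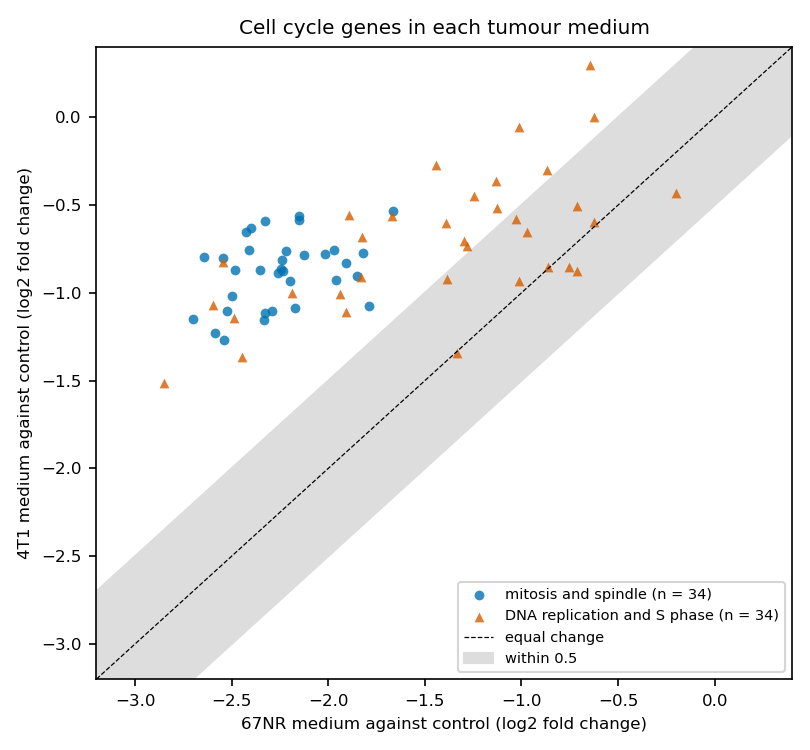
Each point is a gene of the mitosis list (circles) or the DNA replication list (triangles), 34 of each, with its log2 fold change in 67NR medium on the x axis and in 4T1 medium on the y axis. The grey band marks changes within 0.5 of each other. All circles lie above the band, and the 11 triangles in it are the common genes of the replication list.

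Iigp1 had the largest common rise among genes with at least 10 CPM. It is an immunity-related GTPase that acts against vacuolar pathogens. It had 0.934 and 1.04 CPM in control medium, 16.8 and 13.4 in 67NR medium and 12 and 10.9 in 4T1 medium. The 4 tumour-medium libraries were all far above the controls. Iigp1 had a pooled log2 fold change of 3.74 ± 0.20 (SE), with 3.54 in 4T1 and 3.94 in 67NR medium (edgeR adjusted p = 2.9e-08). Gbp2, a guanylate-binding protein of the same defence, had 1.97 and 3.2 CPM in control medium, 13.3 and 9.68 in 67NR medium and 8.52 and 9.04 in 4T1 medium. Gbp6 and Gbp9 had at most 0.311 CPM in control medium, and 3.16 to 3.45 CPM and 1.03 to 1.76 CPM in tumour media. Gbp10 had 64 counts over the 4 tumour-medium libraries and 1 count over the 2 controls, a ratio of 27.8 at scaled totals (95% counting interval 4.82 to 1115). Gbp6 and Gbp10 are near-identical copies, so the split of reads between them is uncertain. Trim30a, an interferon-induced ubiquitin ligase, had 0.934 and 1.04 CPM in control medium, 6.16 and 4.28 in 67NR medium and 5.61 and 4.14 in 4T1 medium. Gbp2 and Trim30a changed by 2.01 ± 0.21 and 2.35 ± 0.27 (pooled log2 change ± SE), with an edgeR adjusted p of at most 2.81e-05. Iigp1, Gbp6, Gbp9 and Trim30a were in the tightest set.

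Most of the interferon list rose further with 67NR than with 4T1 medium. Of its 35 tested genes, 28 rose in the pooled comparison, against 14.9% of all tested genes higher, and 7 did not pass. The common genes were 3, Iigp1, Gbp2 and Ifi47, a share near the 7.65% of all tested genes. The call of Ifi47 was lost without the first control library (edgeR adjusted p = 0.0658), and without the second 67NR library 1 gene of the list was common. In 67NR medium alone 34 of the 35 were higher (13% of all tested genes were). In 4T1 medium alone 22 were higher (19.9% were) and 2 lower (19.2% were). Directly compared, 32 were lower in 4T1 than in 67NR medium (19.9% were). The list median was 0.84 with 4T1 and 2.61 with 67NR medium. Oasl2, an antiviral member of the oligoadenylate synthetase family, had 4.1 and 4.01 CPM in control medium, 52.4 and 46.2 in 67NR medium and 18.9 and 12.3 in 4T1 medium. All 4 tumour-medium libraries were above both controls, and the 67NR libraries were the highest. Dhx58, a regulator of viral RNA sensing, likewise had log2 changes of 1.52 with 4T1 and 2.84 with 67NR medium. Ifitm3, which blocks entry of viruses and stands outside that list, had 164 and 156 CPM in control medium, 338 and 333 in 67NR medium and 485 and 418 in 4T1 medium, with the 4T1 libraries highest. Socs1, the feedback inhibitor of interferon signalling whose upstream letters are printed above, had 3.74 and 4.76 CPM in control medium, 12.4 and 9.49 in 67NR medium and 8.72 and 8.28 in 4T1 medium. Ifitm3 and Socs1 changed by 1.28 ± 0.07 and 1.2 ± 0.16 (pooled log2 change ± SE), with an edgeR adjusted p of at most 0.00011. Ifitm3 and Socs1 both belonged to the common response.

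Of 15 tested genes of MHC class I presentation, 12 rose (14.9% of all tested genes did) and 5 rose in common (7.65% of all tested), H2-K1, Tap2, Psmb8, Psme2 and Nlrc5. In 67NR medium alone 14 were higher (13% of all tested genes were). In 4T1 medium alone 7 were higher (19.9% were) and 1 lower (19.2% were). Directly compared, 11 were lower in 4T1 than in 67NR medium (19.9% were). The common count was 3 without the first 4T1 library, the second control library or with DESeq2, and 8 without the second 4T1 library. Psmb8 is an inducible catalytic subunit of the immunoproteasome. It had 1.51 and 0.892 CPM in control medium, 6.25 and 5.5 in 67NR medium and 5.54 and 3.81 in 4T1 medium. For Psmb8 the log2 change was 2.06 ± 0.26 (SE) pooled, 1.89 with 4T1 and 2.23 with 67NR medium (edgeR adjusted p = 4.98e-05). Tap2, a subunit of the peptide transporter into the endoplasmic reticulum, had 15.4 and 12.3 CPM in control medium, 37.1 and 33.7 in 67NR medium and 31.8 and 22 in 4T1 medium. The second 4T1 library was the lowest of the 4 and above both controls. In Tap2 the media gave log2 changes of 0.93 (4T1) and 1.34 (67NR), pooled 1.14 ± 0.14 (SE) (edgeR adjusted p = 5.14e-05). Nlrc5, the class I transactivator, had 37 counts over the tumour media and 1 over the controls, a ratio of 16.1 (95% counting interval 2.71 to 652), and its call was lost without the first control library (edgeR adjusted p = 0.144) and with DESeq2 (0.0527). Without either control library 8 of the 15 rose, and without the second the calls of H2-K1 (edgeR adjusted p = 0.0526) and Psme2 (0.144) were lost. Il1rn, the antagonist of the interleukin 1 receptor, had 15.7 and 18.7 CPM in control medium, 35 and 29.8 in 67NR medium and 40.3 and 40.3 in 4T1 medium, a pooled log2 change of 1.08 ± 0.10 (SE). Ulbp1 encodes a ligand of the activating receptor NKG2D of natural killer cells and fell. It had 49.6 and 59.9 CPM in control medium, 20.1 and 20.6 in 67NR medium and 17.2 and 24.7 in 4T1 medium. Ulbp1 had a pooled log2 fold change of -1.39 ± 0.11 (SE), with -1.36 in 4T1 and -1.42 in 67NR medium (edgeR adjusted p = 1e-06). Clec2d, a ligand of an inhibitory receptor on those cells, rose by a pooled log2 change of 0.82 ± 0.07 (SE). Ulbp1 and Clec2d were both in the tightest set.

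**Figure D4:**
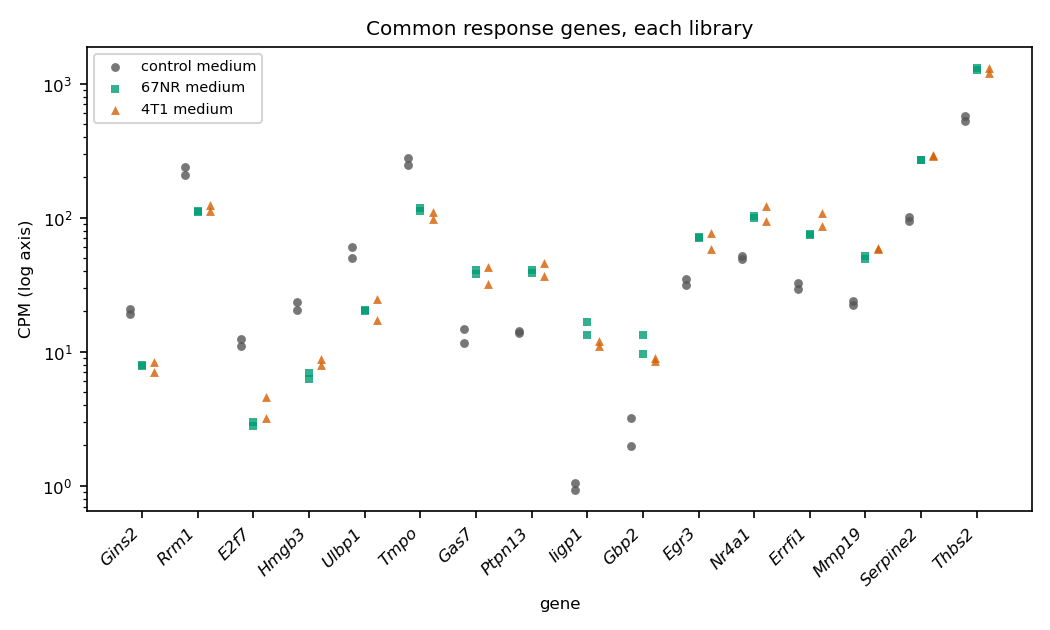
Levels of 16 common genes in CPM on a log axis, with a point for each of the 2 libraries of control medium (circles), 67NR medium (squares) and 4T1 medium (triangles). In the 6 genes on the left both tumour media lie below control medium and in the 10 on the right above it, as the rule requires, and the media lie close to each other.

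Immediate early transcription factors are switched on within minutes of a growth signal, and several were higher in both media after 96 h. Of 25 tested genes in the list of AP-1 and immediate early factors, 14 rose (14.9% of all tested genes did). In the same list 3 fell (16.1% did) and 8 did not pass. In common 9 rose (7.65% of all tested) and Klf6 fell. The list also holds Dusp and Spry genes, which do not encode transcription factors. Its median was 0.78 with 4T1 and 0.22 with 67NR medium, and 12 genes were higher and 4 lower in 4T1 than in 67NR medium. In 4T1 medium alone 16 were higher and 3 lower, and in 67NR medium 13 and 2. The common rises were 6 without the second control library. The pooled rises were 12 without the first control library and 11 without the second. Egr3 had 34.6 and 31.4 CPM in control medium, 70.6 and 72 in 67NR medium and 58.5 and 76.1 in 4T1 medium. The first 4T1 library was the lowest of the 4 and above both controls. For Egr3 the log2 change was 1.07 ± 0.10 (SE) pooled, 1.03 with 4T1 and 1.11 with 67NR medium (edgeR adjusted p = 3.38e-06). Nr4a1, an orphan nuclear receptor, had 51.8 and 49.4 CPM in control medium, 99 and 103 in 67NR medium and 93.6 and 121 in 4T1 medium. In Nr4a1 the media gave log2 changes of 1.09 (4T1) and 0.99 (67NR), pooled 1.04 ± 0.09 (SE) (edgeR adjusted p = 2.41e-06). Egr1, the best known of the family, had 414 and 403 CPM in control medium, 701 and 698 in 67NR medium and 635 and 772 in 4T1 medium, with a pooled log2 change of 0.78 ± 0.07 (SE). Egr2 had 12.3 and 11.2 CPM in control medium, 24.1 and 24.7 in 67NR medium and 19.7 and 27.1 in 4T1 medium, with a change of 1.02 ± 0.12 (SE). Fos and Ier2 rose in common, each by 0.89 with 4T1 medium, and by 0.50 and 0.57 with 67NR medium. Egr3 and Nr4a1 were in the tightest set.

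Further genes of the tightest set, picked after their values were seen, act in signalling or survival, and all of those described here but Mras were higher. Errfi1 is induced by growth factors and inhibits the EGF receptor. It had 32.4 and 29.4 CPM in control medium, 75.2 and 73.9 in 67NR medium and 86.7 and 108 in 4T1 medium. The 4T1 libraries were above the 67NR libraries. Errfi1 had a pooled log2 fold change of 1.46 ± 0.09 (SE), with 1.65 in 4T1 and 1.27 in 67NR medium (edgeR adjusted p = 1.27e-07). Ptpn13, a large tyrosine phosphatase, had 13.8 and 14.3 CPM in control medium, 38.4 and 40.8 in 67NR medium and 36.6 and 45.9 in 4T1 medium. Gas7, first described as a growth arrest gene, had 11.6 and 14.9 CPM in control medium, 38.1 and 40.9 in 67NR medium and 31.9 and 42.8 in 4T1 medium. Rhoj, a small GTPase, had 68.8 and 67.9 CPM in control medium, 141 and 135 in 67NR medium and 157 and 158 in 4T1 medium. Ptpn13, Gas7 and Rhoj changed by 1.53 ± 0.10, 1.56 ± 0.13 and 1.11 ± 0.06 (pooled log2 change ± SE), with an edgeR adjusted p of at most 1.46e-06. Of these, Rhoj alone had both 4T1 libraries above both 67NR libraries. Bcl2l11 encodes BIM, which promotes apoptosis, and Nol3 encodes a repressor of apoptosis. They had pooled log2 changes of 0.81 ± 0.07 and 0.69 ± 0.07 (SE), so genes of opposite function rose together. Rnf144a, a ubiquitin ligase, and Gdpd2, a phosphodiesterase of lipid head groups, had under 11 CPM in every library and changes of 1.54 ± 0.18 and 2.16 ± 0.15 (SE). Mras, a Ras-related GTPase, was lower at 45.2 to 48.8 CPM in tumour media against 69.9 and 75 CPM in control medium, a change of -0.61 ± 0.06 (SE). All of these were in the tightest set.

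Morphogen pathways changed gene by gene. Ptch1, the Hedgehog receptor and itself a target of that pathway, had 36.6 and 34.3 CPM in control medium, 18.2 and 18.6 in 67NR medium and 14.7 and 15.8 in 4T1 medium. Both media lowered it, 4T1 medium slightly more. For Ptch1 the log2 change was -1.08 ± 0.08 (SE) pooled, -1.22 with 4T1 and -0.95 with 67NR medium (edgeR adjusted p = 3e-07). Of 20 tested Wnt pathway genes 7 rose and 5 fell, with 4 common rises (Wnt4, Fzd4, Sfrp1 and Dkk2) and 1 common fall (Wnt9a). The call of Dkk2 was lost without the first control library (edgeR adjusted p = 0.265) and the second 67NR library (0.0783). Sfrp1, a secreted Wnt antagonist, had 393 and 376 CPM in control medium, 579.8 and 575 in 67NR medium and 721 and 882 in 4T1 medium. In Sfrp1 the media gave log2 changes of 1.06 (4T1) and 0.59 (67NR), pooled 0.82 ± 0.08 (SE) (edgeR adjusted p = 3.32e-06). Wnt9a had 6.18 and 6.99 CPM in control medium, 3.34 and 3.21 in 67NR medium and 3.45 and 2.61 in 4T1 medium, a log2 change of -1.06 ± 0.16 (SE). Of 21 tested TGF-beta pathway genes and TGF-beta and YAP targets 7 rose and 9 fell. There were 4 common rises and 3 common falls, with fewer common falls without the second control library. Among the rises the ligand Tgfb1 had a common rise (0.52 ± 0.09), as had the mediator Smad3 (0.38 ± 0.07) and Ltbp1, which holds the latent ligand in the matrix (0.49 ± 0.06). Inhba, which encodes an activin subunit, and Amotl2, a regulator of YAP, were common falls (-0.26 ± 0.06 and -0.28 ± 0.06), and both calls were lost without the second control library (edgeR adjusted p = 0.106 and 0.0544). Igfbp3, which binds insulin-like growth factors, was at 36.5 to 46.7 CPM in tumour media against 19.7 and 22.3 CPM in control medium and was the only common gene of 11 tested in the IGF system. Igfbp3 had a pooled log2 fold change of 1.0 ± 0.08 (SE), with 1.15 in 4T1 and 0.85 in 67NR medium (edgeR adjusted p = 8.45e-07). Of 13 tested BMP and Id genes 6 rose and 4 fell, but 3 rose without the first control library. Of 10 tested Notch genes 3 rose and 5 fell, but 1 rose without either control library and 3 fell without the second. These lists are to be read against 14.9% of all tested genes higher and 16.1% lower.

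Some secreted proteins that act on the matrix or on proteases rose in common, and others fell. Thbs2 (thrombospondin 2), a matricellular inhibitor of vessel growth, had 569 and 528 CPM in control medium, 1301 and 1254 in 67NR medium and 1189.8 and 1303 in 4T1 medium. Both media raised it to nearly the same level. For Thbs2 the log2 change was 1.2 ± 0.06 (SE) pooled, 1.18 with 4T1 and 1.22 with 67NR medium (edgeR adjusted p = 2.9e-08). Serpine2 (protease nexin 1), an inhibitor of thrombin and plasminogen activators, had 94 and 102 CPM in control medium, 270.4 and 269 in 67NR medium and 294 and 289 in 4T1 medium. In Serpine2 the media gave log2 changes of 1.58 (4T1) and 1.46 (67NR), pooled 1.52 ± 0.06 (SE) (edgeR adjusted p = 2.2e-09). Serpinf1 (pigment epithelium-derived factor), another inhibitor of vessel growth, had 119 and 103 CPM in control medium, 232 and 212 in 67NR medium and 251 and 239.8 in 4T1 medium. Mmp19, a matrix metalloproteinase, had 22.2 and 23.9 CPM in control medium, 51.8 and 48.9 in 67NR medium and 57.9 and 59.2 in 4T1 medium. Agrn, a heparan sulphate proteoglycan of basement membranes, had 38.2 and 37 CPM in control medium, 82.5 and 80.2 in 67NR medium and 68.9 and 66.3 in 4T1 medium, with the 67NR libraries highest. Ppbp, a precursor of platelet chemokines, had 4.26 and 4.76 CPM in control medium, 12.4 and 10.9 in 67NR medium and 13.7 and 12.5 in 4T1 medium. Serpinf1, Mmp19, Agrn and Ppbp changed by 1.07 ± 0.07, 1.24 ± 0.07, 0.98 ± 0.06 and 1.46 ± 0.13 (pooled log2 change ± SE), with an edgeR adjusted p of at most 2.74e-06. All of these were in the tightest set. Bgn (biglycan), a relative of decorin, had 24.7 and 25.6 CPM in control medium, 44.9 and 40.1 in 67NR medium and 55.6 and 61.4 in 4T1 medium, higher with 4T1 medium. Bgn had a pooled log2 fold change of 0.99 ± 0.08 (SE), with 1.22 in 4T1 and 0.76 in 67NR medium (edgeR adjusted p = 1.03e-06).

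Other matrix genes moved in both directions. Over all tested genes 14.9% rose and 16.1% fell, and 7.65% rose and 8.16% fell in common. Of 34 tested matrix glycoproteins and proteoglycans 16 rose and 13 fell, with 4 common rises and 1 common fall, and of 30 tested genes of crosslinking and proteolysis 13 rose and 8 fell, with 6 of each in common, though 5 fell without the first control library. Lox and Loxl2, which crosslink collagen, fell in common by 0.25 and 0.30 on the log2 scale with 4T1 medium and by 0.71 and 0.51 with 67NR medium. Timp3, an inhibitor of metalloproteinases, had 1703 and 1751 CPM in control medium, 1209 and 1234 in 67NR medium and 950.3 and 973 in 4T1 medium. Both media lowered it, 4T1 medium more. For Timp3 the log2 change was -0.67 ± 0.05 (SE) pooled, -0.84 with 4T1 and -0.50 with 67NR medium (edgeR adjusted p = 6.7e-07). Of 22 tested collagen genes 7 rose and 11 fell, and 4 fell in common. In 4T1 medium alone 4 were higher and 15 lower, and in 67NR medium alone 10 and 7. The list median was -0.66 with 4T1 and 0.14 with 67NR medium, and 17 genes were lower and 1 higher in 4T1 than in 67NR medium. Col7a1, the collagen of anchoring fibrils, had 16.7 and 15.5 CPM in control medium, 9.22 and 9.05 in 67NR medium and 9.06 and 9.15 in 4T1 medium and was in the tightest set. In Col7a1 the media gave log2 changes of -0.83 (4T1) and -0.82 (67NR), pooled -0.82 ± 0.10 (SE) (edgeR adjusted p = 3.18e-05). Col5a2 had 1909.7 and 1839 CPM in control medium, 1420.0 and 1389 in 67NR medium and 1299 and 1308 in 4T1 medium. Col1a2, the partner of Col1a1 in type I collagen, had only 11.2 and 15.7 CPM in control medium, 8.06 and 5.84 in 67NR medium and 5.2 and 5.45 in 4T1 medium. Col5a2 and Col1a2 changed by -0.47 ± 0.05 and -1.12 ± 0.16 (pooled log2 change ± SE), with an edgeR adjusted p of at most 0.000164. Col3a1 was the single common rise, with 7940.4 and 7469.8 CPM in control medium, 11601 and 10966 in 67NR medium and 8709 and 8735 in 4T1 medium. Col3a1 had a pooled log2 fold change of 0.36 ± 0.06 (SE), with 0.18 in 4T1 and 0.55 in 67NR medium (edgeR adjusted p = 0.000391). Col1a1 itself had log2 changes of -1.0 with 4T1 and 0.14 with 67NR medium.

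Of 28 tested genes of lysosome and autophagy 12 rose (14.9% of all tested genes did), 2 fell (16.1% did) and 14 did not pass. In common 9 rose (7.65% of all tested). In 4T1 medium alone 9 were higher and 5 lower, and in 67NR medium alone 15 were higher and none lower. The list median was 0.02 with 4T1 and 0.24 with 67NR medium, and 5 genes were higher and 13 lower in 4T1 than in 67NR medium. In the pooled comparison 8 rose without the first control library and 9 without the second. Lipa, the acid lipase that frees cholesterol from its esters, is not in that list and had 261 and 251 CPM in control medium, 417 and 401 in 67NR medium and 392 and 417 in 4T1 medium. It was in the tightest set. For Lipa the log2 change was 0.67 ± 0.06 (SE) pooled, 0.66 with 4T1 and 0.68 with 67NR medium (edgeR adjusted p = 1.7e-06). Ctsb (cathepsin B), a cysteine protease of lysosomes, had 527 and 519 CPM in control medium, 838 and 799 in 67NR medium and 1092 and 1069.9 in 4T1 medium, higher with 4T1 medium. Lamp2, a lysosomal membrane protein, had 510.5 and 543 CPM in control medium, 709 and 704 in 67NR medium and 698 and 741 in 4T1 medium. Npc2 carries cholesterol out of lysosomes and was counted in the LXR and cholesterol efflux list. It had 239 and 234 CPM in control medium, 332 and 340.2 in 67NR medium and 493 and 449 in 4T1 medium. Ctsb, Lamp2 and Npc2 changed by 0.85 ± 0.06, 0.44 ± 0.06 and 0.75 ± 0.06 (pooled log2 change ± SE), with an edgeR adjusted p of at most 7.43e-05. The 4T1 libraries were the highest for Ctsb and Npc2, and the media overlapped for Lamp2. Gpam, the first enzyme of triglyceride synthesis at mitochondria, had 121 and 129.5 CPM in control medium, 224 and 219 in 67NR medium and 218 and 225 in 4T1 medium and was in the tightest set. In Gpam the media gave log2 changes of 0.82 (4T1) and 0.82 (67NR), pooled 0.82 ± 0.06 (SE) (edgeR adjusted p = 2.85e-07). Of 24 tested genes of fatty acid synthesis and storage 2 rose (14.9% of all tested genes did), 5 fell (16.1% did) and 17 did not pass. The 1 common rise was lost without any 1 of the control or 67NR libraries, and 2 fell without the second control library. In 4T1 medium alone 5 were higher and 12 lower, and in 67NR medium alone 2 and 1. Of 9 tested LXR and cholesterol efflux genes 5 rose (14.9% of all tested genes did) and 4 rose in common (7.65% of all tested). However, 1 rose without the first control library, 2 without the second and 2 without the first 67NR library.

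Of 14 tested cytosolic heat shock genes 8 fell (16.1% of all tested genes did), 6 did not pass and 6 fell in common (8.16% of all tested), and 6 and 5 fell without the first and the second control library. Hspa4l, a chaperone of the HSP110 family outside that list, had 23.3 and 25.2 CPM in control medium, 10.6 and 11.4 in 67NR medium and 11.9 and 11.3 in 4T1 medium and was in the tightest set. Hspa4l had a pooled log2 fold change of -1.1 ± 0.09 (SE), with -1.06 in 4T1 and -1.14 in 67NR medium (edgeR adjusted p = 9.64e-07). Hsph1, its relative in the list, had 107 and 109 CPM in control medium, 69.4 and 71 in 67NR medium and 79.8 and 84 in 4T1 medium, a pooled log2 change of -0.51 ± 0.06 (SE). Of 27 tested nuclear-encoded respiratory chain genes 7 fell (16.1% of all tested genes did), all in common (8.16% of all tested). The other 20 did not pass, and the list medians were -0.15 in both media. Ndufb8, of complex I, had 79.9 and 80.1 CPM in control medium, 65.8 and 63.5 in 67NR medium and 69.6 and 62.5 in 4T1 medium. For Ndufb8 the log2 change was -0.29 ± 0.06 (SE) pooled, -0.28 with 4T1 and -0.31 with 67NR medium (edgeR adjusted p = 0.00368). Without the first or the second control library 2 of the 27 fell, without the first or second 67NR library 3 and 4, and without the first 4T1 library 16. Of 13 mitochondrially encoded transcripts 9 rose and 6 rose in common, such as mt-Co1 with 2508 and 3229 CPM in control medium, 3845 and 4701 in 67NR medium and 4646 and 5111 in 4T1 medium. The first control library was the lowest, 4 rose and 1 fell without it, and 12 rose without the second. Mitochondrial transcripts took 1.32% and 1.87% of counts in control medium, 1.96% and 2.28% in 67NR medium and 2.11% and 2.37% in 4T1 medium. Malat1, a nuclear long non-coding RNA, had 230.0 and 273 CPM in control medium, 334 and 514 in 67NR medium and 404 and 459 in 4T1 medium. In Malat1 the media gave log2 changes of 0.78 (4T1) and 0.75 (67NR), pooled 0.77 ± 0.14 (SE) (edgeR adjusted p = 0.000872). The part of RNA quality in these changes was not tested.

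Most tested genes that mark FRCs rose in the pooled comparison, mainly through 4T1 medium. Of 13 tested FRC and lymph node stroma genes 9 rose (14.9% of all tested genes did) and 1 fell (16.1% did). The list median was 1.61 with 4T1 and 0.26 with 67NR medium, and 9 genes were higher in 4T1 than in 67NR medium. In 4T1 medium alone 9 were higher and 2 lower, and in 67NR medium alone 5 and 1. The list has 21 genes in the count table, and those not tested had too few counts. The 1 gene that fell in the pooled comparison, Pdpn, was the sole common gene. Pdpn encodes podoplanin, the surface protein by which FRCs are sorted and which keeps them contractile. It had 119 and 129.8 CPM in control medium, 97.1 and 109 in 67NR medium and 101 and 109.5 in 4T1 medium. The groups did not overlap but lay close together. Pdpn had a pooled log2 fold change of -0.25 ± 0.07 (SE), with -0.24 in 4T1 and -0.27 in 67NR medium (edgeR adjusted p = 0.0131). The call was lost without the second control library (edgeR adjusted p = 0.183) and without the first 67NR library (0.0685). Csf1, the growth factor of macrophages, had 624 and 685 CPM in control medium, 532 and 572 in 67NR medium and 577 and 595 in 4T1 medium. For Csf1 the log2 change was -0.20 ± 0.06 (SE) pooled, -0.16 with 4T1 and -0.24 with 67NR medium (edgeR adjusted p = 0.0211). That call was also lost without those libraries (0.267 and 0.111). Of 24 tested contractile genes 12 fell (16.1% of all tested genes did) and 3 rose (14.9% did). In common 5 fell (8.16% of all tested), but 1 without the second control library. In 4T1 medium alone 15 were lower and none higher, and in 67NR medium alone 5 were lower and 6 higher. The list median was -0.37 with 4T1 and 0.007 with 67NR medium, and 17 genes were lower in 4T1 than in 67NR medium. In the pooled comparison 8 fell without the first control library, 5 without the second and 7 without the first 67NR library. The rises were lost without either control library, without the second 67NR library and with DESeq2. Acta2, smooth muscle actin, had 3472 and 3607 CPM in control medium, 3709.8 and 3476 in 67NR medium and 2739 and 2565 in 4T1 medium. The 67NR libraries overlapped the controls, and the pooled call (log2 -0.20 ± 0.06) was lost when any 1 of the control or 67NR libraries was left out, with adjusted p from 0.0512 to 0.154. Anxa3, an annexin, and Lrrfip1 fell in the tightest set by 0.84 ± 0.06 and 0.80 ± 0.06 (SE).

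Several lists passed the pooled test in number with much larger changes in 1 medium than in the other. Of the complement and acute phase list, 18 genes were called higher in 4T1 medium alone and 8 in 67NR medium alone, against 19.9% and 13% of all tested genes. Of 19 tested complement and acute phase genes 16 rose, but 1 was common (none without the first 67NR or the second 4T1 library), and the list median was 4.47 with 4T1 and 0.68 with 67NR medium. Lcn2 (lipocalin 2) had 2.02 and 1.86 CPM in control medium, 1.76 and 2.34 in 67NR medium and 2563 and 2662 in 4T1 medium. The 67NR libraries overlapped the controls, although the pooled log2 change was 5.22. C1s1, a complement protease, rose in both media by unequal amounts, with 20.7 and 23.7 CPM in control medium, 63.7 and 61.4 in 67NR medium and 317 and 330.1 in 4T1 medium. Of 20 tested NF-kB subunits, inhibitors and targets 15 rose (14.9% of all tested genes did) and 1 was common (Birc3). The list medians were 1.53 with 4T1 and -0.01 with 67NR medium. Cxcl1, which attracts neutrophils, had log2 changes of 2.45 and 0.19. Of 11 tested chemokines and myeloid growth factors 6 rose and none was a common rise. Ccl2 and Ccl7, which attract monocytes, rose with 4T1 medium (log2 2.65 and 2.55) and fell with 67NR medium (-0.89 and -0.67), and Il6 rose with 4T1 medium (5.33) and had a change of -0.49 with 67NR medium. Tlr4, the receptor for lipopolysaccharide, had 25.9 and 24.2 CPM in control medium, 26.3 and 29.8 in 67NR medium and 36.8 and 46.7 in 4T1 medium. Its pooled change of 0.45 ± 0.10 (SE) came mainly from 4T1 medium, and the call was lost without the second control library (edgeR adjusted p = 0.0655).

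Metabolic lists showed the same dependence on the medium. Their pooled counts stand beside 14.9% of all tested genes higher and 16.1% lower. Of 24 tested genes of cholesterol synthesis and uptake 22 fell, with 1 common fall (Acat2) and medians of -0.83 with 4T1 and -0.01 with 67NR medium. Idi1, an isomerase of that pathway, had 119 and 144 CPM in control medium, 108 and 117 in 67NR medium and 42.6 and 47.4 in 4T1 medium. Of 35 tested ATF4 targets and amino acid stress genes 14 rose and 2 fell, with medians of 0.49 with 4T1 and -0.19 with 67NR medium, but without the second control library 9 rose and none fell, and without the first 4T1 library 5 fell. Cth, which makes cysteine, had 16.6 and 17.9 CPM in control medium, 12.6 and 13 in 67NR medium and 86.8 and 88.7 in 4T1 medium. Of 26 tested genes of MYC, ribosome biogenesis and the nucleolus all 26 fell with 67NR medium (14.6% of all tested genes did). With 4T1 medium 20 of them rose (19.9% of all tested genes did), and none was common. Of 19 tested glycolysis genes 8 fell and 4 rose in the pooled comparison, but 2 rose without the first control library. Angpt2, a ligand of the endothelial receptor Tie2, changed in opposite directions, with 38.1 and 33.9 CPM in control medium, 151 and 149 in 67NR medium and 3.58 and 3.0 in 4T1 medium. Its pooled log2 change of -0.71 averaged -3.47 with 4T1 and 2.05 with 67NR medium.

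**Figure D5:**
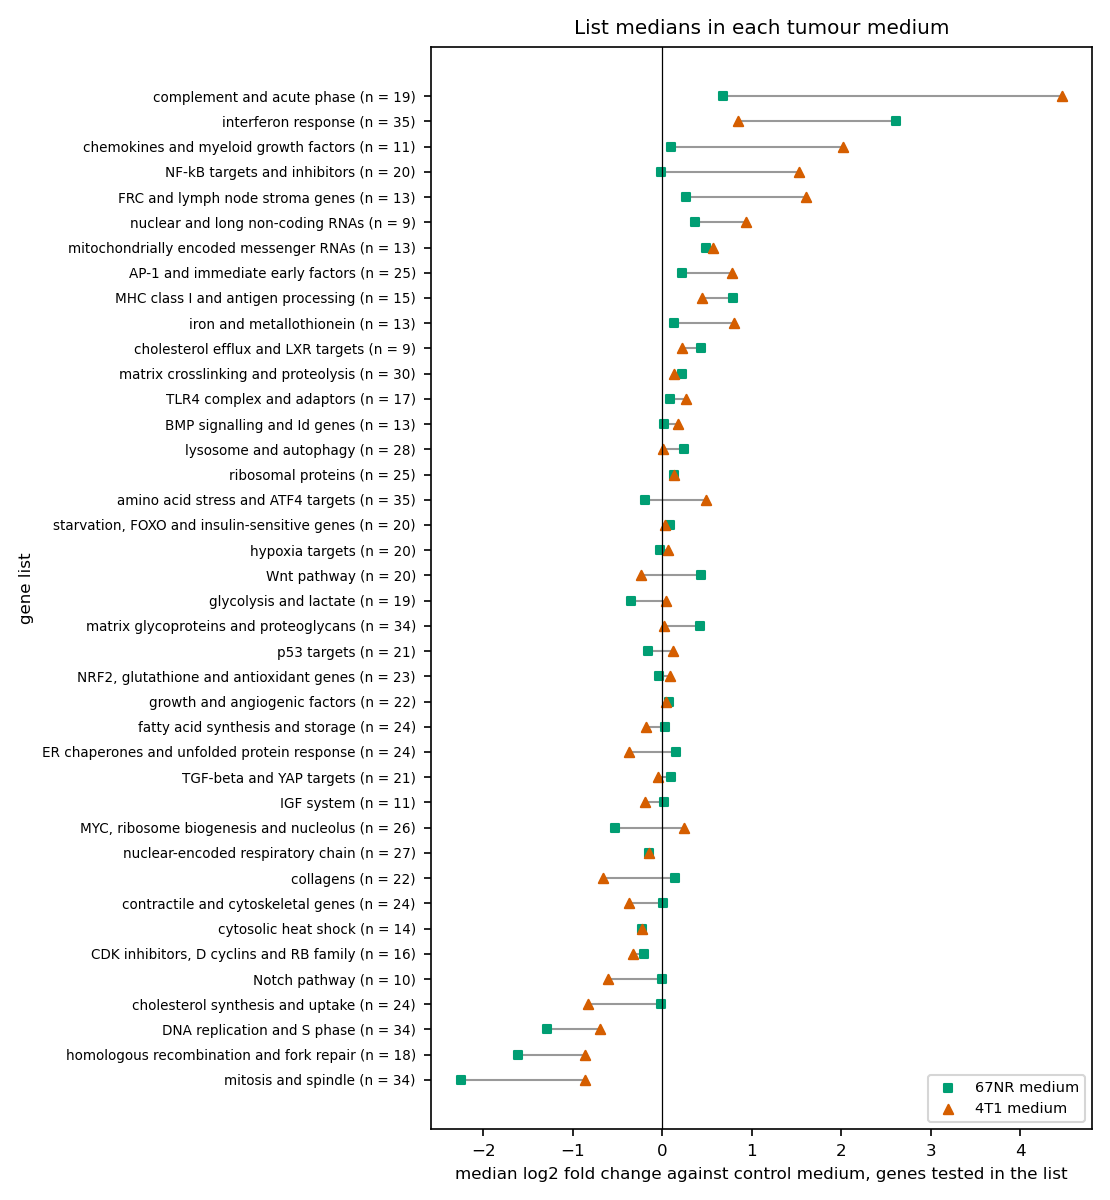
Each row is a gene list with the number of its genes tested. Squares mark the median log2 fold change against control in 67NR medium and triangles that in 4T1 medium, joined by a line. The markers nearly coincide for the respiratory chain, heat shock, ribosomal protein, growth and angiogenic factor, starvation and mitochondrially encoded lists, among others. They lie far apart for mitosis, interferon, acute phase and cholesterol synthesis. Equal medians can hide unequal genes. In the heat shock list 4 genes were called higher and 5 lower in 4T1 than in 67NR medium, and in the growth and angiogenic factor list 10 and 9.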

How the data were processed

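Poly(A) RNA was sequenced from 6 libraries of a mouse FRC line, on an Illumina NextSeq500 from directional libraries, per the labels' protocols. The authors deposited whole-number raw counts for 55367 gene symbols in an unfiltered table, which was used here, and in a filtered table with the same counts for 14629 genes. The submitters' processing notes name Subread, DESeq2 1.32.0 and the build mm10. Whether counting used strand is not given in the sources used here. Values of overlapping or antisense genes and of near-identical copies are therefore uncertain. Total counts were 13.6 to 21.8 M (1e6) per library. No library duplicated another.

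The 15055 genes tested passed edgeR's filterByExpr (version 4.0.16, at least 10 counts, total of at least 15), and TMM set the scaling. One quasi-likelihood fit had a mean for each medium (prior count 0.125, biological coefficient of variation 5.81%, 3 residual and 9.62 prior degrees of freedom). The pooled change is the mean of the 2 tumour media minus control. Tests used Benjamini-Hochberg adjustment over all genes tested. Each standard error is the size of the log2 change over the root of its F statistic. Counting intervals are at the 95% level and cover counting error only. R 4.3.3, limma 3.58.1, DESeq2 1.42.0, Python 3.11.15 and matplotlib 3.10.9 were used. The code was tested on simulated counts. Of the tested symbols 14741 matched GENCODE M21. Promoters come from a RefSeq table of GRCm38.p6.

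The comparison, the 41 gene lists, the markers and the rules were chosen with earlier results of these data known. The list of replication-dependent histones had no symbol in the table. The naming rule took the 12 largest rises and 12 largest falls among common genes with at least 10 CPM, ordered by the smaller of the changes in the 2 media. It added up to 4 common genes and 2 unequal genes of each list, the largest differences between media, and 8 genes regardless of value. It gave 205 genes, and the choice among them was made after their values were seen, as was that of Gbp6, Gbp9, Gbp10, Trim30a, Socs1, Ifitm3, Il1rn, Dck, Dscc1, Inhba, Amotl2, the genes printed with their promoters and the tightest set. Replicate numbers were not used to pair the libraries in the main fit. The alternatives were other scalings, filters, tests, bounds on size, a fit with the tumour media as 1 group, a replicate block and each library left out in turn.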

Additional observations from a re-analysis of the deposited data

Results flagged for a closer look

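Of the genes named above, those given only as cell type markers aside, 12 passed edgeR's test for a difference between the media of over 2-fold. The threshold was an adjusted p under 0.05, and the pooled value of these 12 is a mean of unequal parts. Mcm5, Rrm2 and Col1a1, whose estimates given above also lay more than 2-fold apart, were not among the 12. Statements on named genes below leave out the same markers. The 4T1 minus 67NR difference on the log2 scale was 10.3 for Lcn2, 5.82 for Il6, 3.53 for Ccl2, 3.22 for Ccl7, 2.78 for Cth, 2.37 for C1s1, 2.27 for Cxcl1 and 1.46 for Cdc20. It was -5.52 for Angpt2, -1.68 for Oasl2, -1.32 for Dhx58 and -1.32 for Idi1. The media lay on opposite sides of control for Il6, Ccl2, Ccl7, Cth and Angpt2. Groups of 2 libraries were too small to test single libraries for standing apart.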

How the results depend on the processing

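The pooled counts (2245 higher, 2424 lower) and the common counts (1151 higher, 1228 lower) stayed within 1.5 times of these values under limma-voom, unfiltered, restricted to the authors' filtered genes, and scaled by library totals or by DESeq2 size factors. With the tumour media as 1 group they were 29, 23, 28 and 23, since the difference between media then counts as spread. Against a minimum fold of 1.2 they were 887, 907, 291 and 291. The Wald test of DESeq2 gave 755 common higher genes, and requiring each medium to pass the threshold gave 536 and 572. With each library left out in turn the counts ranged from 1101 to 2617, 1405 to 3019, 467 to 1380 and 658 to 1659, lowest without a control library and highest without the first 4T1 library. With the replicate number as a block they were 2363, 2509, 1196 and 1248, and no named gene lost its pooled call, although Brip1 was no longer common. Over all genes same-numbered libraries did not deviate together (correlations of -0.051, 0.016 and 0.077). A pairing that touched few genes would not show in these correlations, and the labels do not say how the replicates were made. Of the named genes 21 lost their call against the minimum fold. Angpt2 was the 1 named gene whose pooled direction reversed, to 1.09 with the tumour media as 1 group. Depth limits genes near 1 CPM, where a single count was up to 0.0743 CPM.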

Other observations

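Other common genes belonged to lipid, nucleotide and neuronal functions. Enpp1, which makes pyrophosphate outside the cell, had 5.24 and 3.94 CPM in control medium, 12.2 and 9.59 in 67NR medium and 9.87 and 10.9 in 4T1 medium, and Dhrs9, a retinol dehydrogenase, had 5.14 and 4.68 CPM in control medium, 13.4 and 15.8 in 67NR medium and 10.3 and 10.8 in 4T1 medium. Both stayed under 16 CPM, and the 67NR libraries were the highest for Dhrs9. Tmem86a, a lysoplasmalogenase, had 10.2 and 10.3 CPM in control medium, 26.1 and 23.5 in 67NR medium and 33.5 and 31.2 in 4T1 medium, with the 4T1 libraries highest. Enpp1, Dhrs9 and Tmem86a changed by 1.19 ± 0.16, 1.33 ± 0.13 and 1.46 ± 0.09 (pooled log2 change ± SE), with an edgeR adjusted p of at most 9.24e-05. Slc23a2, the vitamin C transporter, had 50.5 and 48.9 CPM in control medium, 77 and 76.6 in 67NR medium and 80.7 and 85.2 in 4T1 medium.

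Genes best known from neurons moved both ways. Ptprn, a membrane protein of dense-core vesicles, had 10.2 and 10 CPM in control medium, 21.2 and 20.5 in 67NR medium and 20.2 and 20 in 4T1 medium, and Eno2, the neuronal form of enolase, had 6.44 and 6.61 CPM in control medium, 13.1 and 11.6 in 67NR medium and 13.2 and 13.1 in 4T1 medium. In both genes the 4 tumour-medium libraries lay close together above the controls. Shank2, a scaffold of synapses, had 12.9 and 12.4 CPM in control medium, 4.91 and 5.21 in 67NR medium and 5.54 and 5.61 in 4T1 medium and was lower in all 4. Ptprn, Eno2 and Shank2 changed by 1.01 ± 0.09, 0.97 ± 0.12 and -1.25 ± 0.11 (pooled log2 change ± SE), with an edgeR adjusted p of at most 3.35e-05. Bdnf, a neurotrophin, had 137 and 143 CPM in control medium, 97.5 and 99.2 in 67NR medium and 125 and 127 in 4T1 medium, and Pdgfa, a growth factor for mesenchymal cells, had 55.9 and 57.4 CPM in control medium, 36.7 and 41.4 in 67NR medium and 41.2 and 37.2 in 4T1 medium. Bdnf and Pdgfa changed by -0.33 ± 0.05 and -0.53 ± 0.07 (pooled log2 change ± SE), with an edgeR adjusted p of at most 0.000543, with the 67NR libraries lowest for Bdnf and the media overlapping for Pdgfa.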
